A study of Mus musculus with 8 samples.

Results

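MAGE genes, first found as melanoma antigens, form a family whose proteins share a MAGE homology domain. The 9 genes described here are Magea2, Magea10, Mageb1, Mageb2, Mageb4, Mageb16, Maged1, Maged2 and Mageh1. They were chosen by their gene symbol in the authors' deposited comparison, where each of the 9 had a row among 14853 genes. The list was drawn up with the values of this comparison known, so the fold changes and p values of the members are a description and no independent test of the family.

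Type I MAGE genes, which include Magea and Mageb, lie mostly on the X chromosome and are active mainly in germ cells. Their promoters are silenced in most somatic cells by DNA methylation, and tumours that lose this methylation express them. Type II genes, such as Maged1, Maged2 and Mageh1, are active in many tissues. Many MAGE proteins bind a RING-type ubiquitin ligase and steer it to its targets.

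Total RNA was sequenced from undifferentiated spermatogonia, a testis population that holds the male germline's stem cells. Mice of strain C57BL/6, 8 to 12 weeks old, carried a tamoxifen-activated Cre recombinase (CreER) at 1 copy of Tert, the gene of the telomerase reverse transcriptase. In 4 samples the other copy of Tert was flanked by loxP sites (TERTCreER/flox, titled TERT-del), and in 4 samples it was normal (TERTCreER/+, titled TERT-hetero). All mice also carried 1 copy of the Rosa lsl-Tdtomato reporter, which Cre switches on. Every animal therefore had a CreER copy of Tert and received tamoxifen, and the control group is no wild type. On day 7 the sort took cells that were MCAM-high, KIT-negative and Tdtomato-positive. The labels do not say whether a sample is 1 animal or a pool.

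The file used here is a table of the authors' comparison. Values of single libraries were not analysed. A mean count below is the normalized count averaged over all libraries. A log2 fold change is that of CreER/flox over CreER/+, a direction taken from the table's name, which sets flox against WT, and SE is its standard error as fitted by the authors. A gene is said to be called when its deposited adjusted p is under 0.05. For Tert itself the authors' deposited table gave 0.29 (SE 0.26, adjusted p 0.595). The sources used here do not name the deleted exons, and reads of the remaining exons may count, so this value is no check of the labels or of the direction. All 22 listed genes of undifferentiated spermatogonia had a row, and the authors' deposited table gave them mean counts from 14.9 for Utf1 to 5143 for Zbtb16 (median 332). Mcam, a marker of the sort, had 4854. Of the 22, 0 were called by DESeq2 (2 at an unadjusted p under 0.05).

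Several MAGE genes are near copies of each other, so that a sequencing read may fit more than 1 of them. Mageb1 and Mageb2 lie 682 kb apart on the X chromosome, and 1138 of their 1140 coding bases are identical in GENCODE M21. Mageb3, a family gene on chromosome 2, matched Mageb1 at 976 of 990 aligned coding bases. A stretch of 75 coding bases with a difference between Mageb1 and Mageb2 is shown for the 3 genes (GRCm38, coding strand), with capitals at the bases where they are not all alike.
Mageb1: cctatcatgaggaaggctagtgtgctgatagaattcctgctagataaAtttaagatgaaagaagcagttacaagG
Mageb2: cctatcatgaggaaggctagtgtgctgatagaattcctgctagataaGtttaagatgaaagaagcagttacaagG
Mageb3: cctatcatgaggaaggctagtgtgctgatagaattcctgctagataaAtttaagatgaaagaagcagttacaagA
The stretches lie at chrX:92015809-92015883 on the minus strand for Mageb1, at chrX:91332205-91332279 on the plus strand for Mageb2 and at chr2:121954845-121954919 on the minus strand for Mageb3. Counted from 1 at the left end, the changes from Mageb1 are A48G in Mageb2 and G75A in Mageb3.

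The extent of such overlap was measured as the share of a gene's 50-base transcript windows that also occur in another annotated gene. It was 93.3% for Mageb1 and 72.4% for Mageb2, mostly with each other. For Magea2 it was 58.3%, of which the largest part (45.4% of its windows) was shared with Magea1. Mageb16 shared 55.1% of its windows with the pseudogene Mageb16-ps2, and Mageb4 shared 50.1% with the pseudogene Mageb10-ps. The type II member Maged2 shared 1.49%, with Tro. Magea10, Maged1 and Mageh1 shared 0 windows with any other annotated gene. The sources used here do not say how reads that fit several genes were counted.

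**Figure D1:**
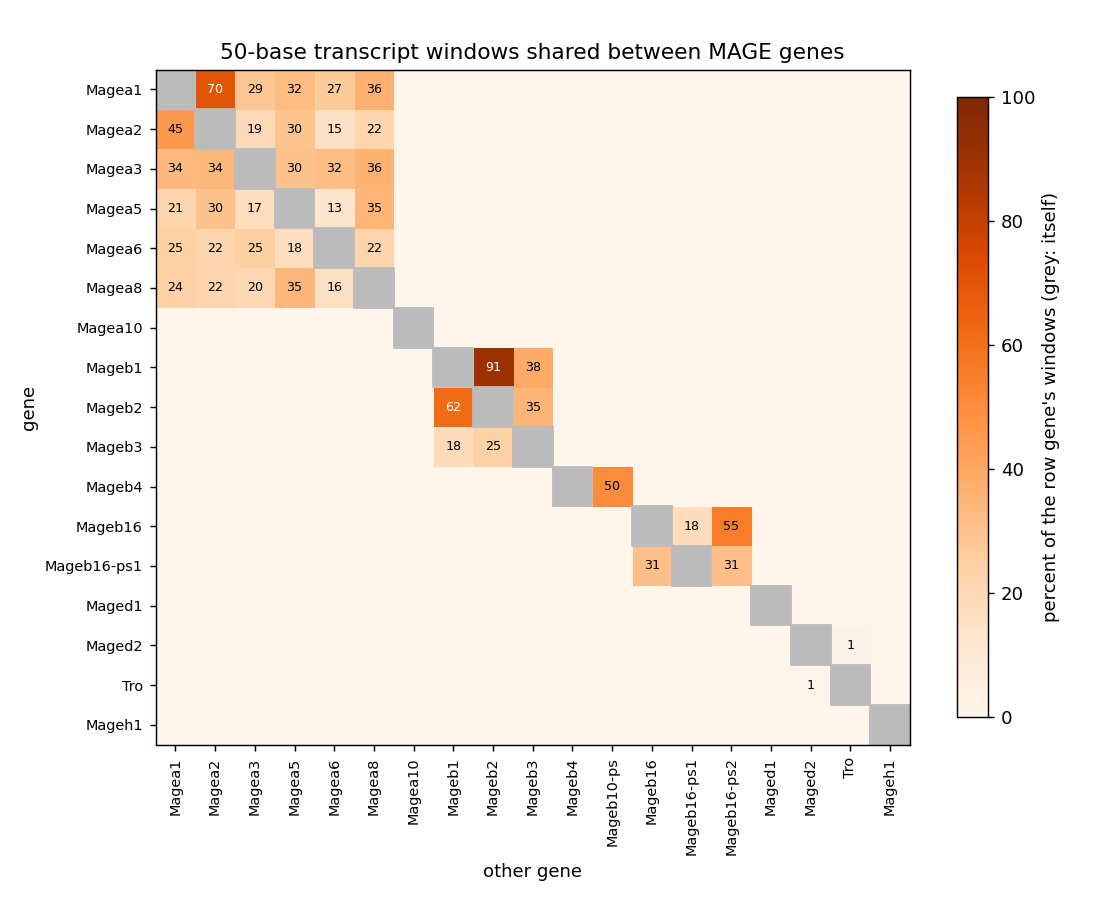
Share of each gene's 50-base transcript windows (rows, in percent) that also occur in another gene (columns), for selected MAGE genes and pseudogenes that share windows with them. The family genes Mageb5, Mageb18, Ndn, Nsmce3 and Magef1 are not drawn. Blocks stand out for the Magea genes other than Magea10 and for Mageb1, Mageb2 and Mageb3, while Magea10, Maged1 and Mageh1 share none.

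Abundance differed widely among the members. Compared per length, as mean count per kb of the longest annotated transcript, Mageb4 was the most abundant member at 1395, in percentile 98.0 of 13723 protein-coding genes. Maged1 followed at 934.7 per kb and percentile 96.9. Mageb1 (256.7), Mageb16 (249.5) and Mageb2 (188.6) were intermediate on this scale. Maged2 (52.2), Magea2 (48.5) and Magea10 (42.0) were below the median protein-coding gene, and Mageh1 was last at 10.5 per kb. Without values per library the spread of these levels is not known, so that neighbours in this order cannot be told apart. The annotated transcripts of Mageb1 and Mageb2 differ in length, which sets their difference per kb.

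Of the 9 members, 3 were called higher in CreER/flox (Magea2, Mageb1 and Mageb2), where 1.94% of all genes, and 2.44% of X-linked genes, were called higher and 5.36% of all genes in either direction. None was called lower by DESeq2 (0 also at an unadjusted p under 0.05), where 3.42% of all genes were. Mageb1 and Mageb2 share most of their sequence, so the 3 called members may be 2 measurements. The 6 type I members all had values above 0, with a median log2 fold change of 0.38, while 1 of the 3 type II members did, with a median of -0.03. Over all genes of the table the median was 0.00071, and 50.1% lay above 0. Since the list was chosen on this contrast, these counts are descriptive. At an unadjusted p under 0.05 the members with higher values numbered 5, with 9.15% of all genes.

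Magea2 (Entrez gene 17138, X chromosome, 155027201 to 155033313 in GRCm38) had the largest fold change of the 9. It rose 1.79-fold in the authors' deposited table, with a log2 fold change of 0.84 (SE 0.25, 95% interval 0.35 to 1.33, adjusted p 0.0239) at a mean count of 81.6. With the libraries of both groups weighted alike, this corresponds to a mean count of about 104.8 in CreER/flox and 58.5 in CreER/+. Its SE was 1.04 times the median SE of the 200 genes of nearest mean count, so the fitted spread was that of a typical gene at this depth.

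Magea2 belongs to an array of 6 Magea genes with rows, which spans 165.9 kb. The other 5, Magea1, Magea3, Magea5, Magea6 and Magea8, were not called, with log2 fold changes from 0.37 for Magea8 to 0.92 for Magea3 in the authors' deposited table. Magea3 had a larger fold change than Magea2, but a lower mean count of 30.0 and an SE of 0.40. Windows are shared across the array, so these values may not be separate measurements, and whether the copies responded differently was not tested. Magea10 lies apart from the array and shares no window with it. In the authors' deposited table it stood at 0.32 (SE 0.24, 95% interval -0.16 to 0.79, adjusted p 0.510) at a mean count of 76.5 and was not called.

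The annotated promoters of Magea2 and Magea8 are copies as well, with 216 of 235 aligned bases identical in the 250 bases before the start site. They are printed because ETS transcription factors, which bind a GGAA core, are known activators of human MAGEA promoters. They are also the 2 of the array whose annotated promoter windows held the motif. CGGAA or its reverse complement TTCCG, in capitals, occurred 3 times in the 250 bases of each, against at least 3 times in 2.12% of 32851 RefSeq promoter windows. The windows of Magea1, Magea3, Magea5 and Magea6, array genes whose values were also above 0, held 0 matches. The motif contains the pair CG, of which Magea6 held 1 and the others 0, so matches were hardly possible there. The windows of Magea3, Magea5 and Magea6 also lie wholly within these genes as RefSeq bounds them. Sequence before the outer ends of these genes was not searched, so a lack of the motif there is not shown. A GGAA core without a C before it was not counted, so ETS sites of that kind were not assessed. The 100 bases before the annotated start site of the window are given on the coding strand, with Mageb4 and Magea10 for comparison.
Magea2: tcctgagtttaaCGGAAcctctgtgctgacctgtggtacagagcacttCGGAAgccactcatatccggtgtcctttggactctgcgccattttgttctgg
Magea8: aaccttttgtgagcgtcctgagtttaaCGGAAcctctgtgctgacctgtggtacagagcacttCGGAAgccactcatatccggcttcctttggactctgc
Mageb4: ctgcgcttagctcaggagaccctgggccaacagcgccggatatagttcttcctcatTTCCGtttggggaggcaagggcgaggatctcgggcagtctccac
Magea10: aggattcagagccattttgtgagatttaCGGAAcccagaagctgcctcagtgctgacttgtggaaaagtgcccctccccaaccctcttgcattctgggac
All 4 are on the minus strand of GRCm38.p6, at chrX:155033293-155033392, chrX:154995851-154995950, chrX:86256220-86256319 and chrX:72386859-72386958. The last 21 printed bases of Magea2 lie within the gene as RefSeq bounds it, while 0 bases of the other 3 stretches do. The motif was present at least once in 25.2% of all windows of 250 bases and in 6 of the 20 windows of MAGE family genes. Among the other members with a window of 250 bases, Magea10 held 2 matches, Mageb4 and Mageh1 held 1 each, and Mageb16 and Maged1 held 0. The annotated windows of Maged2 held 0 or 1. These matches describe letters in a window, and no binding was measured.

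Mageb1 (Entrez gene 17145, 92015191 to 92016333 on X) and Mageb2 (Entrez gene 17146, 91331905 to 91332897 on X) had almost the same values. These bounds are those of RefSeq, and for Mageb2 they are shorter than its 1140 coding bases in GENCODE M21, so the annotations differ there. Mageb1 was 1.37-fold higher in the authors' deposited table, with a log2 fold change of 0.45 (SE 0.13, 95% interval 0.19 to 0.71, adjusted p 0.0214) at a mean count of 293.4. Mageb2 had 0.45 (SE 0.13, adjusted p 0.0233) at a mean count of 292.6 in the same deposited table. The mean counts differed by 0.283%. Whether the same reads were counted for both genes was not tested. For Mageb1 the fold change corresponds to about 339 counts in CreER/flox and 248 in CreER/+. Mageb3, which shares 27.6% of its windows with other genes, had a mean count of 50.5 and a log2 fold change of 0.21 (SE 0.29) in the authors' deposited table and was not called.

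Mageb4 and Mageb16, the other Mageb members, had smaller fold changes and were not called. Mageb4, whose protein is found in germ cells, had a mean count of 3353 and a log2 fold change of 0.18 (SE 0.08, 95% interval 0.03 to 0.34, adjusted p 0.165) per the authors' deposited table. Mageb16 stood at 0.25 (SE 0.12, 95% interval 0.02 to 0.48, adjusted p 0.211) at a mean count of 462.5 there. Both intervals exclude 0 before adjustment for the number of genes, and 19.7% of all genes had an unadjusted p under 0.05. The interval of Mageb4 reaches up to a 1.27-fold change and overlaps that of Mageb1 (0.19 to 0.71 on the log2 scale). The difference between the genes was not tested.

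Among the type II members none was called (0 also at an unadjusted p under 0.05 by DESeq2). Maged1, an adaptor of neurotrophin receptor signalling, had the smallest SE of the 9 and a log2 fold change of -0.03 (SE 0.07, 95% interval -0.17 to 0.11, adjusted p 0.866) at a mean count of 2696 in the authors' deposited table. Maged2, known for its role in salt transport of the kidney, stood at 0.20 (SE 0.18, 95% interval -0.15 to 0.56, adjusted p 0.594) at a mean count of 134.1. Mageh1 had -0.17 (SE 0.52, adjusted p 0.912) per the authors' deposited table at a mean count of 14.8, close to the lowest mean count of the table (10.4). Its interval, from -1.19 to 0.86, leaves both a 2.29-fold fall and a 1.82-fold rise possible.

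**Figure D2:**
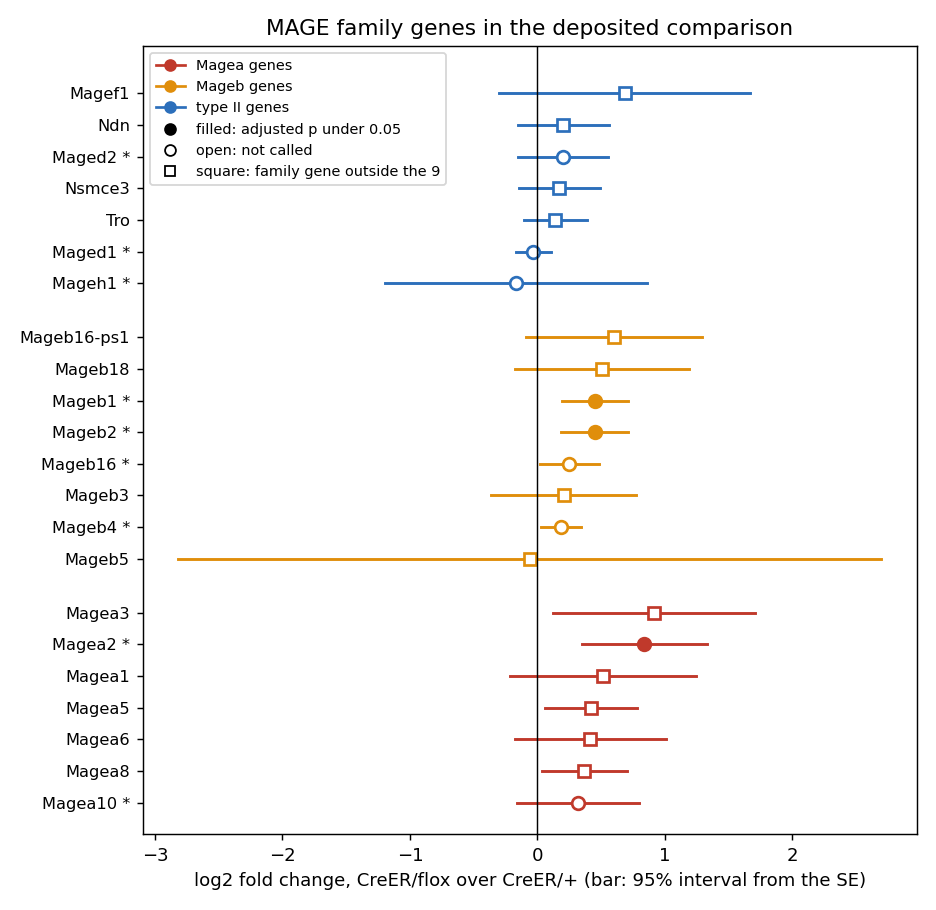
Log2 fold change of CreER/flox over CreER/+ for the 22 MAGE family genes with a row (points) with 95% intervals from the deposited SE (bars), by class, with an asterisk at the 9 members. Filled points mark Magea2, Mageb1 and Mageb2, the called genes, and 19 of the 22 points lie above 0.

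The rest of the family with a row comprised 13 genes, of which 0 were called by DESeq2 (3 at an unadjusted p under 0.05, namely Magea3, Magea5 and Magea8). Over all genes 19.7% had an unadjusted p under 0.05. Values of the 13 in the authors' deposited table included 0.42 (SE 0.18) for Magea5, 0.50 (SE 0.35) for Mageb18, 0.60 (SE 0.35) for the transcribed pseudogene Mageb16-ps1 and -0.06 (SE 1.41) for Mageb5. The type II genes outside the list were Tro (0.14, SE 0.13), the imprinted gene Ndn, which encodes necdin (0.20, SE 0.18), Nsmce3 of the SMC5/6 complex (0.17, SE 0.16) and the transcribed pseudogene Magef1 (0.69, SE 0.50), each taken from the authors' deposited table. Across the 15 type I genes with a row 14 were above 0, with a median of 0.42, and across the 7 type II genes 5 were, with a median of 0.17. Since the copies share sequence, these may not be 15 separate measurements. A further 12 family genes of RefSeq, 7 of them pseudogenes, were not analysed here.

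**Figure D3:**
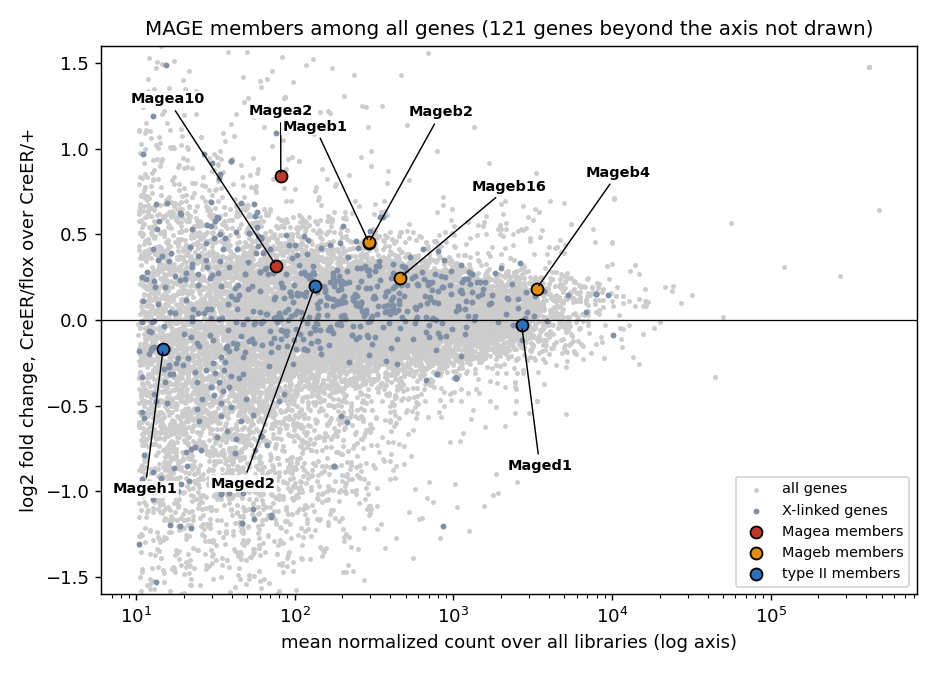
Mean normalized count over all libraries (x, log axis) and log2 fold change of CreER/flox over CreER/+ (y) for all genes (grey), X-linked genes (blue-grey) and the 9 members (large points). Magea2, in percentile 98.5 of all fold changes, is the highest of the 9 and Maged1 lies close to 0, and 121 genes lie beyond the y axis.

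All 9 members are on the X chromosome, whose genes had values above those of the autosomes. The 596 X-linked genes outside the MAGE family had a median log2 fold change of 0.067, with 61.7% above 0, against -0.0025 and 49.5% for 14169 autosomal genes. Chromosome 13 had a like median (0.075), so that this was not seen on X alone. With the median of all X-linked genes subtracted from every gene, autosomal ones included, Magea2 was still called. The adjusted p of Mageb1 (0.0588) and Mageb2 (0.0631) then lay above 0.05. Over all genes this setting called 145 higher and 982 lower, against 288 and 508 as deposited, so it is no comparison within X. Calls among near neighbours were counted as well. Of the X-linked genes outside the family 2.01% were called higher and 0.336% lower, so that few calls among 10 genes would be found in any case. Of the 10 nearest measured genes outside the family, 0 were called on either side of Magea2, Mageb1 or Mageb2, with median log2 fold changes of 0.094, 0.028 and 0.103. Mageb16 was the single member with a called neighbour (1 of 10).

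**Figure D4:**
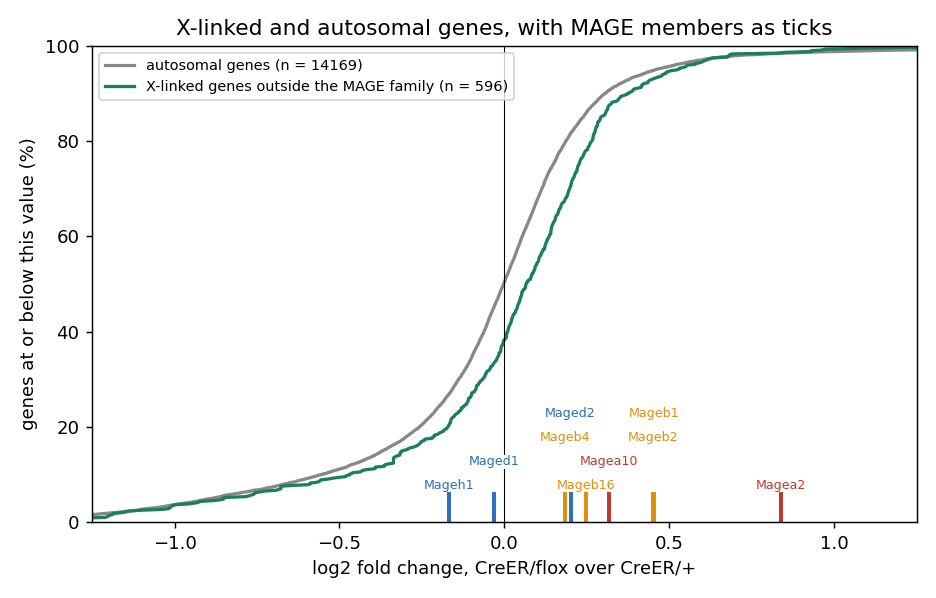
Cumulative share of genes (y, percent) by log2 fold change of CreER/flox over CreER/+ (x) for autosomal genes (grey) and X-linked genes outside the MAGE family (green), with a tick for each of the 9 members. The green curve lies to the right of the grey curve around 0, and Magea2, Mageb1 and Mageb2 are the members furthest to the right.

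Genes that work with MAGE proteins were examined by lists. Over all genes 1.94% were called higher, 3.42% lower, and 19.7% had an unadjusted p under 0.05. A single call in so short a list is therefore no result about the list. Of 13 measured ubiquitin ligases, deubiquitinases and trafficking partners, 1 was called higher and 0 lower, with a median log2 fold change of 0.031. This was Vps35, a subunit of the retromer complex that MAGE-L2 binds, with 0.34 (SE 0.10, adjusted p 0.0280 per the authors' deposited table). Among 16 measured client proteins 0 were called by DESeq2 (1 at an unadjusted p under 0.05), and the smallest p belonged to G3bp2, which encodes a stress granule protein (0.24, SE 0.09, adjusted p 0.0901), followed by Ciao1 of iron-sulfur protein assembly at 0.20 (SE 0.10, adjusted p 0.266 per the authors' deposited table). In the SMC5/6 complex, which holds the MAGE protein Nsmce3, 1 of 6 genes was called. Its testis-enriched subunit gene Eid3 stood at -0.65 per the authors' deposited table (SE 0.21, adjusted p 0.0371), and the median of the 6 was 0.10.

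Factors of DNA methylation and repressive chromatin, of the kind that keep MAGE promoters silent, had a median of 0.040 over 13 genes. Of these, 1 was called higher and 1 lower, where 1.94% and 3.42% of all genes were. In the authors' deposited table, Hells, a remodeller needed for DNA methylation, was higher (0.27, SE 0.07, adjusted p 0.00980) and Ehmt2, a histone H3 lysine 9 methyltransferase, was lower at -0.23 (SE 0.06, adjusted p 0.010). The methylation of MAGE promoters was not measured.

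Some markers of other cells differed between the groups as well. All 20 measured spermatid genes lay below 0, with a median of -1.09 and mean counts from 21.8 to 2304 (median 312), and 8 were called lower, among them Odf1 (-1.14, SE 0.22), Txndc2 (-1.09, SE 0.24), Spata18 (-1.04, SE 0.23) and Spem1 (-1.47, SE 0.33) in the authors' deposited table. Of 12 spermatocyte genes 2 were called lower, Piwil1 (-0.73, SE 0.14) and Sycp2 (-0.53, SE 0.15), and 0 higher, in the authors' deposited table. The median of the 12 was -0.020, with 6 above 0, so these 2 do not stand for the list. Over all genes 3.42% were called lower. The lists of undifferentiated and differentiating spermatogonia had medians of -0.057 and 0.056, and 0 members of either were called by DESeq2 (2 and 3 at an unadjusted p under 0.05). Their smallest p values belonged to Ret (-0.23, SE 0.08), Zbtb16 (-0.18, SE 0.07), Dmrtb1 (-0.91, SE 0.37) and Sohlh2 (0.23, SE 0.10) in the authors' deposited table. In such bulk samples, fewer cells of a type and less RNA per cell cannot be told apart, and the part of these markers in the values of the MAGE genes was not tested.

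Somatic markers were measured in part. Of 12 Sertoli genes 7 had a row, with a median mean count of 21.5. Their median log2 fold change was -0.029, and 3 of the 7 lay above 0. The 1 call was Trf, higher (0.62, SE 0.15) at a mean count of 316.3, above that of Mageb1. Leydig cells were represented by Star alone, at a mean count of 46.4 (-0.47, SE 0.33). Of 10 myoid and endothelial genes 8 had a row, at mean counts from 13.1 to 105.7, and Actg2 was called lower (-1.17, SE 0.37). The median of the 8 was -0.24, with 3 above 0. Of the leukocyte and erythroid genes 7 had a row, at mean counts from 10.6 to 107.1, and 0 were called by DESeq2 (0 at an unadjusted p under 0.05). The median of the 7 was 0.87, with 5 above 0. The smallest p values belonged to Hbb-bt at 1.07 (SE 1.28) and Alas2 at -0.25 (SE 0.35), by the authors' deposited table. Over all genes 1.94% were called higher and 3.42% lower.

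The calls of the MAGE members rest on the normal distribution of the Wald statistic, whose central spread over all genes was 1.45 times that of a standard normal distribution. Divided by this spread, 0 members passed (adjusted p 0.622 to 0.636 for the 3 called genes), and 2 genes of all 14853 were called higher and 3 lower. A further alternative, chosen after seeing the data, took out the dependence of fold changes on length, base composition and abundance of transcripts. It left 0 members called, and 89 higher and 314 lower among 13723 protein-coding genes. Magea2 kept a log2 fold change of 0.79 and stood just past the threshold (adjusted p 0.050), while Mageb1 stood at 0.35 and Mageb2 at 0.32.

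**Figure D5:**
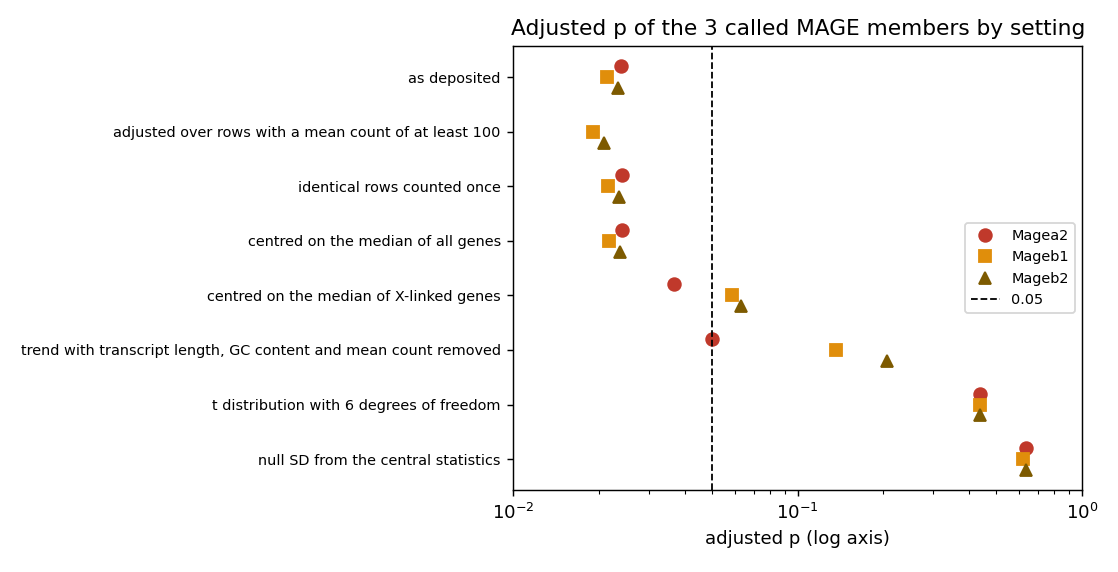
Adjusted p (x, log axis) of Magea2, Mageb1 and Mageb2 under the deposited comparison and 7 other settings (y), with the threshold of 0.05 as a dashed line. The points lie left of the line in the upper settings and right of it in the lowest, where the adjusted p reaches 0.439 for a t distribution and 0.636 for the wider null.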

How the data were processed

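Total RNA libraries were made from column-purified RNA with a stranded low-input kit, per the labels' protocols. The tools in the submitters' processing notes are TopHat2 2.0.4, Bowtie2 2.0.0-6, Bowtie, Trim Galore and DESeq2, and the builds are mm10 and GRCm38. The counting program, strand setting and annotation: not given in the sources used here. In the deposited table, the mean count is a normalized signal averaged by the authors over 8 libraries, the authors' fitted fold changes and SEs are on the log2 scale, the deposited score is the Wald statistic, and the deposited p-values match a normal distribution of it with Benjamini-Hochberg adjustment over 14853 rows (to within 0.426%). The sum of mean counts was 9627624 (identical rows once), and library totals were not used here. The median SE was 0.37 under a mean count of 100 and 0.08 over 1000. Nothing in the labels says whether samples came from separate animals, so p-values measure the spread between these samples.

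No model was fitted across libraries. Rows were matched by Entrez ID to RefSeq (GRCm38.p6), which gave 14828 symbols and positions. RefSeq promoter windows were found for 7 of the 9 members, not for Mageb1 and Mageb2. Lengths, GC content and 50-base windows (both strands) came from GENCODE M21, with a length for 99.2% of rows. Members and lists were chosen with earlier results of these data known. Named genes were all MAGE genes with a row, Tert, up to 4 called or 2 uncalled genes of smallest p per list, and 2 X-linked genes per direction. The level of Mcam and single family members compared with each other were picked after their values were seen. Calculations, checked on simulated data, used Python 3.11.15, pandas 2.3.3, numpy 2.4.6, scipy 1.17.1, patsy and Biopython 1.88.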

Additional observations from a re-analysis of the deposited data

How the results depend on the processing

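No paired analysis was possible because the table holds the authors' comparison and no values per library, and leaving out a replicate was not run for the same reason. The count of 3 members called higher (Magea2, Mageb1, Mageb2) was also 3 at an adjusted p under 0.1, with identical rows counted once and with centring on the median of all genes, and 2 when adjusted over genes at or above a mean count of 100, which leaves out Magea2, Magea10 and Mageh1. It was 0 at an adjusted p under 0.01, 0 with a t distribution of 6 degrees of freedom (0 genes in all, 1652 genes and 3 members at an unadjusted p under 0.05), 0 with the null SD taken from the central statistics and 0 after removal of a trend with length, GC and mean count, and 1 (Magea2) with a minimum absolute log2 fold change of 0.5 or with centring on X-linked genes. Mageb1 and Mageb2 counted as a single measurement, an alternative added after seeing the data, left 2 of 8. Over these settings the adjusted p ranged from 0.0239 to 0.636 for Magea2, from 0.0191 to 0.622 for Mageb1 and from 0.0208 to 0.634 for Mageb2. No member changed direction and none was called lower in any setting run. Of the results for single members, 71 stayed on their side of the threshold and 16 lost a call; beyond the construction of each setting, the cause was not tested. Depth limits Mageh1 most (SE 0.52).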

Other observations

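Other X-linked genes expressed in spermatogonia, not all of them particular to germ cells, were examined as a list beside the MAGE genes. Of 25 measured members, 21 lay above 0, with a median log2 fold change of 0.19, and 0 were called by DESeq2 (8 at an unadjusted p under 0.05). Of the 596 X-linked genes outside the MAGE family, 61.7% lay above 0, with a median of 0.067. An unadjusted p under 0.05 was found for 19.7% of all genes. The list holds several Fthl17 and Xlr genes, whose overlap in sequence was not measured. In the authors' deposited table the members of smallest p were Tktl1, a transketolase-like gene (0.27, SE 0.10, adjusted p 0.0781), and Pramel3 of the Prame family (0.32, SE 0.12, adjusted p 0.0781). Germline genes whose promoters are silenced by DNA methylation in somatic cells, mostly autosomal, lay above 0 in 16 of 21 cases, and their median was 0.12. The 1 call was the RNA-binding Dazl, at 0.23 per the authors' deposited table (SE 0.06, adjusted p 0.00997). Over all genes the median was 0.00071, 50.1% lay above 0 and 1.94% were called higher.

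On the X chromosome outside the MAGE family, the authors' deposited table gave the smallest p among higher genes to Gm1140 (0.60, SE 0.14, adjusted p 0.00171) and Gm14692 (0.60, SE 0.14, adjusted p 0.00288). Among lower genes these were Fam199x (-0.56, SE 0.15, adjusted p 0.0131) and Akap4, which encodes a protein of the sperm tail (-1.20, SE 0.40, adjusted p 0.0468). Of the 614 X-linked genes, 15 were called higher (2.44%) and 2 lower (0.326%).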
